A study of Mus musculus with 18 samples.

Results

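Collagen hydroxylases and lysyl oxidases are the enzymes that finish collagen chains and join them into fibres. The 8 genes described here are the prolyl 4-hydroxylase subunits P4ha1, P4ha2 and P4ha3, the lysyl hydroxylases Plod1, Plod2 and Plod3, and the lysyl oxidases Lox and Loxl1, taken by gene symbol out of 19938 genes that the arrays measured with a probe set of their own. Each of the 8 had exactly 1 probe set. The 18 whole-transcript mouse arrays fell into 6 groups of 3. In the KO soleus and KO quadriceps, a floxed EglN1 gene had been deleted by a tamoxifen-inducible Cre of skeletal muscle. The WT soleus and WT quadriceps came from mice with the Cre and no floxed gene. Both genotypes received tamoxifen for 3 days before the tissues were taken. In a separate experiment, hearts of mice with intact EglN1 were taken after the EglN inhibitor FG-4497, given at 50 mg/kg into the peritoneum, or after vehicle. All mice had been back-crossed to C57BL/6 and ate chow, and their age is not given in the sources used here, nor are the promoter of the Cre, the deleted exons or the time between drug and harvest. A Cre of skeletal muscle is aimed at muscle fibres, whereas fibroblasts and vessels of the same sample are not its target.

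Prolyl 4-hydroxylases convert prolines of new collagen chains to hydroxyproline in the endoplasmic reticulum, which lets the collagen helix hold at body temperature. P4ha1, P4ha2 and P4ha3 encode alternative catalytic subunits that work together with the shared subunit P4hb. Lysyl hydroxylases modify lysines of the same chains: Plod1 acts mainly on the helical part, Plod2 on the short ends (telopeptides), and Plod3 also attaches sugars. Outside the cell, Lox and Loxl1, which need copper, oxidise lysines and hydroxylysines so that neighbouring molecules become cross-linked, with Loxl1 known above all for elastic fibres. The hydroxylases use oxygen, iron and 2-oxoglutarate, as do the EglN enzymes, which mark the hypoxia-inducible factors (HIF) for destruction. P4ha1, P4ha2, Plod2 and Lox are known as HIF targets in other cells.

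The arrays resembled each other within groups, with correlations of 0.986 to 0.995 between replicates over all probe sets. Values are on a log2 scale after RMA (robust multi-array average) by the submitters, so a difference of 1 is a doubling of signal. Egln1, the targeted gene, lay at 11.03 to 11.12 in KO soleus against 11.22 to 11.31 in WT soleus, and at 10.67 to 10.92 in KO quadriceps against 10.94 to 10.99 in WT quadriceps. Its KO minus WT differences were -0.20 ± 0.07 (SE) in soleus and -0.14 ± 0.07 in quadriceps, with limma adjusted p of 0.40 and 0.435, and whether the probe set covers the deleted part is not given. Defining markers fitted the labelled tissues: the mean of 6 cardiomyocyte markers was 12.24 to 12.39 in FG-4497 hearts and 12.20 to 12.37 in vehicle hearts, against 6.60 to 7.42 in the 12 muscle arrays, and 6 skeletal muscle markers averaged 12.99 to 13.73 in muscle against 9.43 to 9.54 in heart. Myl7, an atrial myosin light chain, lay below the filter in both heart groups, and the fast myosins Myh1, Myh2 and Myh4 did so too. Genes entered a test when their mean reached the 40th percentile of all genes, which was 6.54 for muscle and 6.61 for heart and left 11963 genes. P4ha3 did not reach it, and the other 7 members were tested.

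Promoters of 5 of the 8 members were found in the RefSeq table of build GRCm38.p6, namely those of P4ha1, P4ha2, P4ha3, Plod1 and Plod3. The 3 sequences below are the 250 bases before the annotated start, read 5′ to 3′ along the gene. P4ha2 is shown because it rose in FG-4497 hearts, P4ha1 because its heart groups did not overlap, and Plod3 because it held the most motif matches without a called difference in heart. Capitals mark the HIF core motif, ACGTG or GCGTG, which reads CACGT or CACGC where it lies on the opposite strand.
P4ha2: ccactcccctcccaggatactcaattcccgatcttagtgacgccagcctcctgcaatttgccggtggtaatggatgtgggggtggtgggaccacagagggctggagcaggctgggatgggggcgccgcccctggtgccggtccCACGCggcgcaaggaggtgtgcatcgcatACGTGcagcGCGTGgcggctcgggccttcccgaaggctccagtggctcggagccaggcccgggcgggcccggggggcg
P4ha1: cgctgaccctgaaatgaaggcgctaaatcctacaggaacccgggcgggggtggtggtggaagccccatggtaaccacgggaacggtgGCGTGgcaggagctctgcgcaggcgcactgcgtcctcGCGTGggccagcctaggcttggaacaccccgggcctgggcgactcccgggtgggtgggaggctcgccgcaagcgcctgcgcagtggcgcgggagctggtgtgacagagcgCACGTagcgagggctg
Plod3: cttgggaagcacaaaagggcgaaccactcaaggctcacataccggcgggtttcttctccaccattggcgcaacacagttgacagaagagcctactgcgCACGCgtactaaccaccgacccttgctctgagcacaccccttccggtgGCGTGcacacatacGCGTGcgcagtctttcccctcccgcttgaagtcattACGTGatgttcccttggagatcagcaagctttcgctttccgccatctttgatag
The P4ha2 window lies at chr11:54100674-54100923 on the plus strand, the P4ha1 window at chr10:59323046-59323295 on the plus strand and the Plod3 window at chr5:136986769-136987018 on the plus strand. P4ha2 held 3 cores, whose leftmost bases lay 107, 78 and 69 bases before the start. P4ha1 held 3 cores, at 163, 126 and 16 bases. Plod3 held 4, at 152, 104, 90 and 54 bases. The Plod1 window held 1 core, 20 bases before the start, and the P4ha3 window held 0. Among 32851 windows of the same length in the table, 38.6% held at least 1 core, 6.58% at least 3 and 2.58% at least 4. A single core was common in these windows, and 3 or more were less so. A match describes the sequence and is not a binding site.

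In heart, FG-4497 was compared with vehicle to ask how inhibition of the EglN enzymes changes transcripts. Plod2, P4ha2 and Lox, one gene of each enzyme class, were higher in FG-4497 hearts, by 2.49-fold, 1.65-fold and 1.86-fold. The call rule, a Benjamini-Hochberg adjusted p under 0.05 in limma over all tested genes, was met by 3 of the 7 tested members, all higher, against 2.23% of all tested genes in either direction and 1.58% higher. In 5 of the 7 members all 3 FG-4497 arrays lay above all 3 vehicle arrays, against 8.77% of all tested genes. The median log2 difference of the 7 was 0.44, and that of all tested genes was -0.0005. In bulk tissue, more RNA per cell and more cells of a type cannot be told apart.

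Plod2, the telopeptide lysyl hydroxylase, had log2 values of 10.48, 10.38 and 10.25 in FG-4497 hearts, against 9.31, 8.85 and 8.99 in vehicle hearts. The lowest treated heart lay nearly 1 log2 unit above the highest vehicle heart. The difference was 1.32 ± 0.12 (SE, n = 3 each; 95% interval 1.06 to 1.58), with an adjusted p of 0.000126, and it ranked 33 among the 11963 genes by p.

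Among the prolyl 4-hydroxylases, P4ha2 had 8.98, 9.04 and 8.97 in FG-4497 hearts, against 8.33, 8.24 and 8.27 in vehicle hearts. Both groups were tight and far apart, and the difference was 0.72 ± 0.07 (SE, n = 3 each; 95% interval 0.55 to 0.88; adjusted p = 0.00036). P4ha1, the main catalytic subunit in most tissues, had 10.12, 10.24 and 10.09 in FG-4497 hearts, against 9.96, 9.61 and 9.58 in vehicle hearts. The groups did not overlap, but vehicle replicate 1 stood closer to the treated hearts than to the other vehicle hearts. The difference of 0.44 ± 0.11 (95% interval 0.20 to 0.68) did not pass at an adjusted p of 0.0707, and without vehicle replicate 1 it was 0.56 with an adjusted p of 0.0133. P4ha3 had 5.74, 6.07 and 6.05 in FG-4497 hearts, against 5.64, 6.03 and 6.07 in vehicle hearts, all below the filter.

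The other lysyl hydroxylases differed less. Plod1, which acts on helical lysines, had 10.72, 10.83 and 10.88 in FG-4497 hearts, against 10.64, 10.53 and 10.48 in vehicle hearts, a gap smaller than the range within either group. Its difference of 0.26 ± 0.08 had an adjusted p of 0.182. Plod3, the lysyl hydroxylase that also attaches sugars, had 8.66, 8.54 and 8.64 in FG-4497 hearts, against 8.66, 8.33 and 8.42 in vehicle hearts, so the groups overlapped (difference 0.14 ± 0.10, 95% interval -0.07 to 0.36, adjusted p = 0.703).

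Lox, the founding lysyl oxidase, had 8.04, 7.75 and 8.01 in FG-4497 hearts, against 7.09, 7.07 and 6.96 in vehicle hearts. The groups were clearly separate, with a difference of 0.90 ± 0.10 (SE, n = 3 each; 95% interval 0.68 to 1.11; adjusted p = 0.000448). Its relative Loxl1 had 8.73, 8.93 and 8.66 in FG-4497 hearts, against 8.96, 8.93 and 8.85 in vehicle hearts. Those groups overlapped, and the difference was -0.14 ± 0.09 with a 95% interval of -0.34 to 0.06 and an adjusted p of 0.675, so that the interval of Loxl1 lay wholly below that of Lox.

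**Figure D1:**
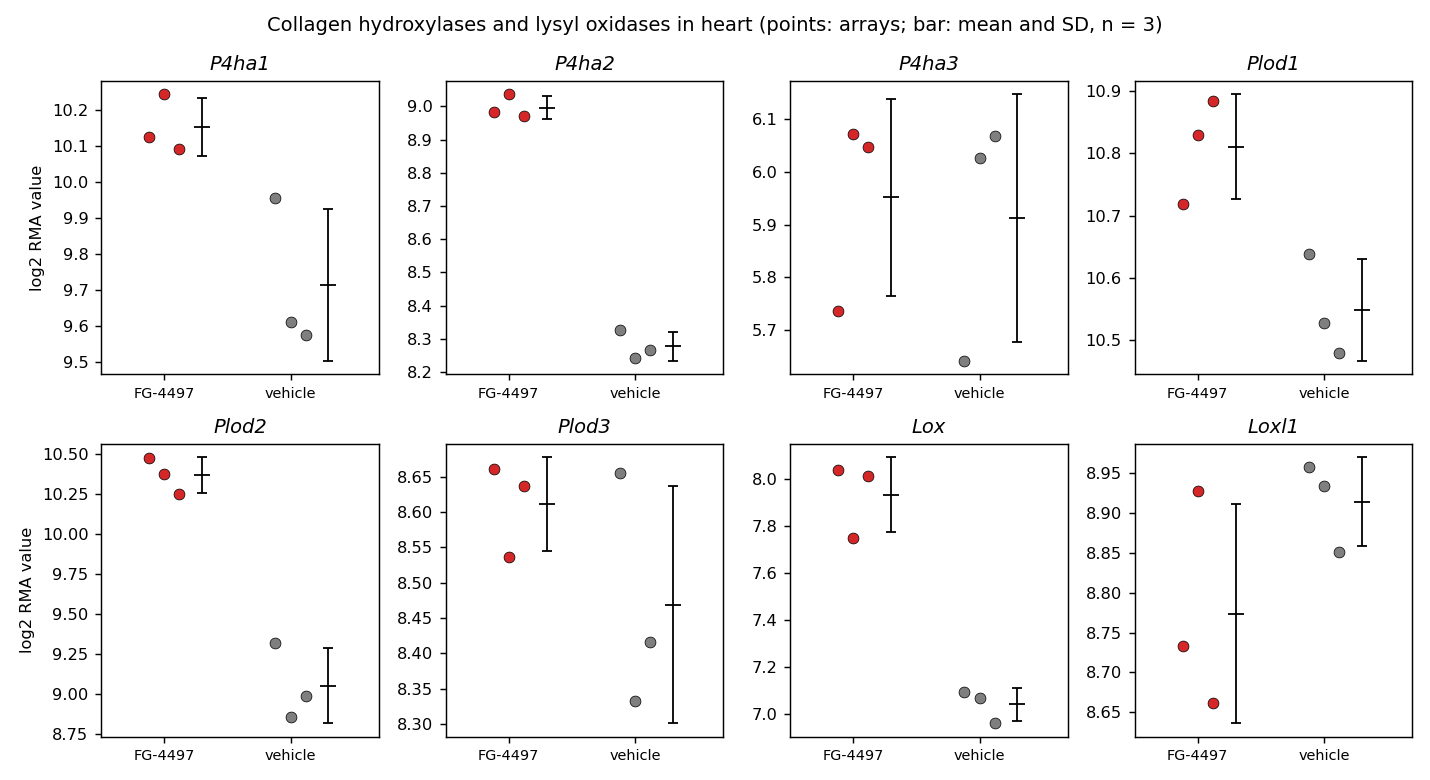
Log2 RMA values (y axis, a separate scale for each gene) of the 8 genes in the 3 FG-4497 hearts (red, left) and the 3 vehicle hearts (grey, right). Points are arrays and bars are the mean and SD. The groups of P4ha1, P4ha2, Plod1, Plod2 and Lox do not overlap, with Plod2 at 10.25 to 10.48 against 8.85 to 9.31, while P4ha3, Plod3 and Loxl1 overlap.

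Genes around these enzymes in the same pathway mostly did not pass in heart. Of 12 other collagen modification and folding genes, 0 passed in either direction, and their median difference was -0.03. The largest among them was that of Colgalt2, a collagen galactosyltransferase, at -0.28 with an adjusted p of 0.226. Of 15 collagen chain genes tested, 0 passed, with a median of -0.02; Col4a1, a basement membrane collagen, had the largest difference at 0.25 (adjusted p = 0.309). Of 10 other lysyl oxidases and their helpers, 1 passed, with a median of 0.00: Postn (periostin, a matrix protein that aids collagen cross-linking) was lower by a log2 difference of -0.42 ± 0.08 (adjusted p = 0.0232). Of 8 genes of TGF beta signalling and fibrosis, 0 passed. Of 17 HIF pathway genes and targets, 10 passed, all higher, with a median of 0.81, led by Adm (adrenomedullin, a vasodilator peptide) at 9.50-fold, Pfkfb3 (a regulator of glycolysis) at 2.82-fold and Slc2a1 (the glucose transporter GLUT1) at 2.61-fold. Adm had an adjusted p of 7.22e-09. The collagen hydroxylase and lysyl oxidase changes stood beside a rise of HIF targets and beside no called collagen chain.

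Markers of other cells were read in the same hearts. The mean of 8 fibroblast markers was 9.85 to 9.90 in FG-4497 hearts and 9.86 to 9.98 in vehicle hearts, with 0 of 8 passing and 0 below the filter. With that mean as a covariate, P4ha1 joined Plod2, P4ha2 and Lox as a called member (adjusted p = 0.0217). Vehicle replicate 1 had both the highest fibroblast mean of the hearts (9.98) and the highest P4ha1 value among vehicle hearts (9.96). The covariate result for P4ha1 is therefore not separate from that of leaving out this array. The mean of 6 endothelial markers was 10.38 to 10.52 in FG-4497 hearts and 10.22 to 10.29 in vehicle hearts, where 1 of 6 passed, Cldn5, a tight junction protein, at 1.44 log2 units. Only 3 of these 6 had differences above 0, and their median difference was -0.005, so the higher mean was not shared across the markers. The 7 smooth muscle and pericyte markers averaged 8.78 to 9.12 in FG-4497 hearts and 8.88 to 8.96 in vehicle hearts. The 6 leukocyte markers averaged 7.92 to 8.29 in FG-4497 hearts and 8.08 to 8.14 in vehicle hearts, and the 6 tendon markers 6.50 to 6.61 in FG-4497 hearts and 6.46 to 6.78 in vehicle hearts. None of the tested markers of these 3 lists passed, while 1 of 2 measured erythroid markers did (Alas2, of heme synthesis, at 0.96 log2 units), and these averaged 8.49 to 8.90 in FG-4497 hearts and 7.85 to 8.18 in vehicle hearts. Only 2 of the 6 tendon markers reached the heart filter and were tested. Tnmd, Mkx and Comp lay below 6.58, the filter level over all 18 arrays, in both heart groups, and Fmod did so in FG-4497 hearts. The part of endothelial or erythroid RNA in the enzyme changes was not tested.

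In muscle, KO was compared with WT to ask what loss of EglN1 in fibres does to transcripts of the tissue. No collagen hydroxylase or lysyl oxidase passed in soleus or in quadriceps. In soleus 0 of 7 tested members passed against 0.184% of all tested genes, and in quadriceps 0 of 7 against 0.794%. At an unadjusted p under 0.05 there was 1 member in each muscle, beside 7.56% of all tested genes in soleus and 12.2% in quadriceps. Groups did not overlap for 1 of 7 members in soleus against 12.7% of all tested genes, and for 2 of 7 in quadriceps against 17.1%, shares near the background at these numbers.

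P4ha1 was lower on average in both KO muscles. It had 8.81, 8.75 and 8.71 in KO soleus, against 8.80, 8.88 and 8.97 in WT soleus, where the highest KO value just exceeded the lowest WT value. It had 9.23, 9.23 and 9.35 in KO quadriceps, against 9.40, 9.52 and 9.49 in WT quadriceps, with no overlap. The differences were -0.12 ± 0.06 (SE; adjusted p = 0.737) in soleus and -0.20 ± 0.06 (adjusted p = 0.196) in quadriceps, and the average over both muscles was -0.16 ± 0.05 with an adjusted p of 0.162. P4ha2 had 7.59, 7.59 and 7.69 in KO soleus, against 7.69, 7.68 and 7.76 in WT soleus, and 7.69, 7.70 and 7.64 in KO quadriceps, against 7.85, 7.73 and 7.66 in WT quadriceps. Those groups overlapped in both muscles (differences -0.09 and -0.06, SE 0.06 each). P4ha3 lay at 5.78 to 6.55 in the KO arrays and at 5.94 to 6.27 in the WT arrays, and KO replicate 2 of quadriceps, at 6.55, was the 1 array of 18 above the filter.

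Of the lysyl hydroxylases, Plod3 had 8.37, 8.39 and 8.31 in KO soleus, against 8.43, 8.46 and 8.58 in WT soleus. These groups did not overlap, and the difference was -0.13 ± 0.06 with an adjusted p of 0.66. In quadriceps Plod3 had 8.55, 8.64 and 8.44 in KO, against 8.63, 8.65 and 8.57 in WT, with overlap (difference -0.08 ± 0.06). Plod1 and Plod2 had KO minus WT differences between -0.06 and 0.05 in both muscles, with adjusted p between 0.973 and 0.996. For Plod2 the SE was 0.19, and its 95% intervals ran between -0.47 and 0.35 in soleus and between -0.42 and 0.41 in quadriceps. It had 6.74, 7.50 and 6.46 in KO quadriceps, against 6.88, 6.91 and 6.92 in WT quadriceps, so that the KO arrays lay on both sides of a very tight WT group. In soleus Plod2 had 7.40, 7.45 and 7.08 in KO, against 7.26, 7.38 and 7.46 in WT.

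Lox was the member with the largest difference in KO quadriceps, although it did not pass. It had 8.46, 8.71 and 8.47 in KO quadriceps, against 8.11, 8.02 and 8.27 in WT quadriceps, and the KO arrays were all higher. Because the fit shares its spread over both muscles, the SE was 0.28 for a difference of 0.41, and the adjusted p was 0.614. With the fibroblast marker mean as a covariate the difference was 0.17 (adjusted p = 0.754). In quadriceps 7 of the 8 fibroblast markers had KO minus WT differences above 0, and 0 of 8 passed. Differences were also above 0 for 5 of 6 endothelial, 5 of 6 tendon and 3 of 5 leukocyte markers tested. The part of these cells in the Lox difference was not tested. In soleus Lox had 8.02, 8.61 and 7.11 in KO, against 7.55, 8.10 and 8.13 in WT, the KO arrays reaching above and below all WT arrays, and the difference was -0.01, within -0.35 to 0.38 when any 1 soleus array was left out. Loxl1 had 8.69, 8.88 and 8.45 in KO soleus, against 8.84, 8.74 and 8.84 in WT soleus, and 8.26, 8.58 and 8.52 in KO quadriceps, against 8.71, 8.39 and 8.63 in WT quadriceps, all overlapping. Its differences were -0.13 and -0.12 (SE 0.12 each).

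**Figure D2:**
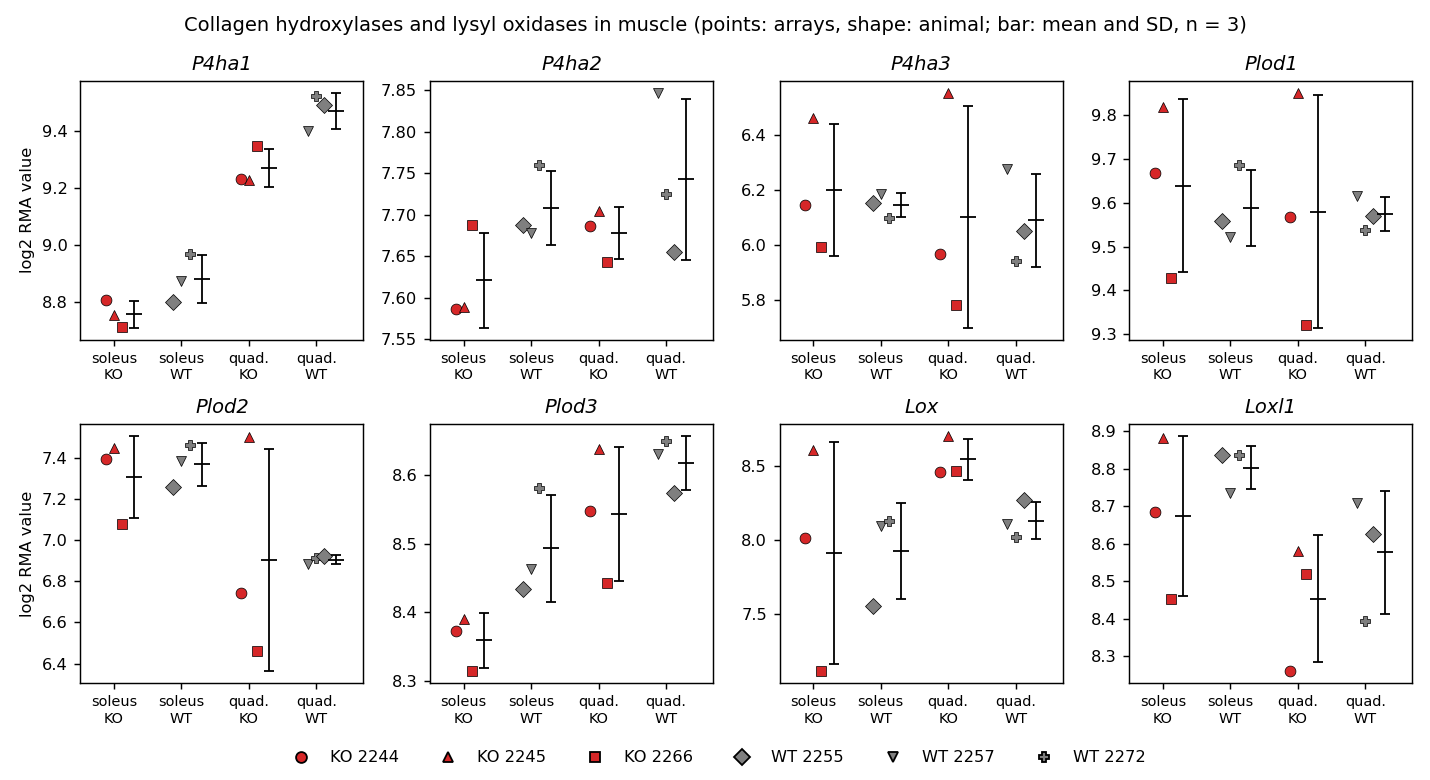
Log2 RMA values (y axis, a separate scale for each gene) in KO (red) and WT (grey) soleus and quadriceps. Points are arrays, their shape is the animal number read from the labels, and bars are the mean and SD of 3. P4ha1 of quadriceps lies at 9.23 to 9.35 in KO and 9.40 to 9.52 in WT, and in quadriceps the KO arrays of Plod1, Plod2 and P4ha3 reach above and below all WT arrays.

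Averaged over both muscles, 0 of 7 members passed against 0.911% of all tested genes, and 2 members, beside 12.1% of all tested genes, had an unadjusted p under 0.05. The KO effect in soleus minus that in quadriceps was also tested, and 0 of 7 members passed against 0.00836% of all tested genes, with 0 members and 6.55% of genes at an unadjusted p under 0.05. The largest of these was for Lox, -0.43 ± 0.36 (adjusted p = 0.908), and it was -0.76 without soleus KO replicate 2 and -0.03 without soleus KO replicate 3. Among the 12 collagen modification genes, the collagens, the lysyl oxidase helpers, the HIF targets and the TGF beta genes, 0 passed in either KO muscle. In quadriceps the largest difference of each of 4 lists was Serpinh1 (the collagen chaperone HSP47) at -0.34 for collagen modification, Col12a1 (a fibril-associated collagen) at 0.28 for the collagens, Postn at 0.60 for the helpers and Pfkfb3 at -1.14 for the HIF targets. In soleus these were P4htm (a transmembrane prolyl hydroxylase) at 0.19, Col3a1 (a fibrillar collagen) at -0.24, Loxl4 at -0.15 and Adm at 0.39, and Timp1 (a metalloproteinase inhibitor) at -0.35 for the TGF beta genes. P4htm was counted in the collagen modification list, although it is not established as a collagen enzyme. The 8 fibroblast markers averaged 9.62 to 10.24 in KO soleus and 9.93 to 10.04 in WT soleus, and 10.11 to 10.25 in KO quadriceps and 9.84 to 10.22 in WT quadriceps, with 0 of 8 passing in either muscle. The 6 tendon markers averaged 8.61 to 9.57 in KO soleus and 8.96 to 9.24 in WT soleus, and 8.62 to 9.27 in KO quadriceps and 8.38 to 8.88 in WT quadriceps.

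**Figure D3:**
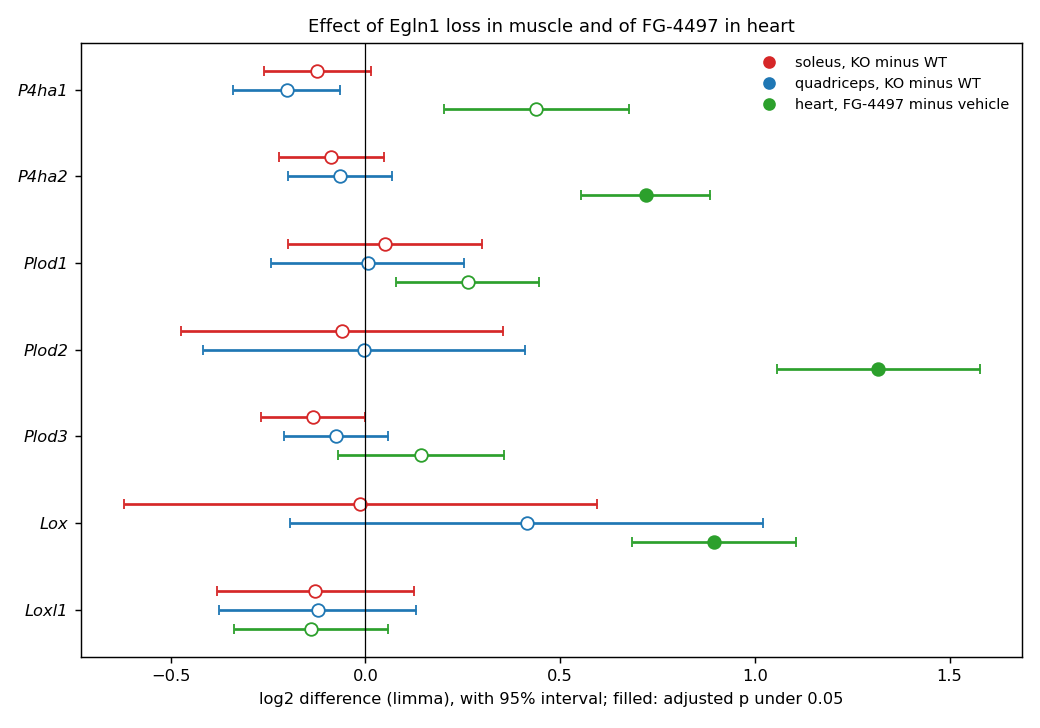
Log2 differences (x axis) with 95% intervals for the 7 tested genes: KO minus WT in soleus (red), KO minus WT in quadriceps (blue) and FG-4497 minus vehicle in heart (green). Filled points passed an adjusted p of 0.05, which were Plod2 (1.32), Lox (0.90) and P4ha2 (0.72) in heart and none in muscle.

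Set side by side, Plod2 differed by 1.32 in FG-4497 hearts and by -0.06 in KO soleus and -0.003 in KO quadriceps. The quadriceps value was -0.30 without KO replicate 2 and 0.20 without quadriceps KO replicate 3, and neither passed. P4ha2 differed by 0.72 in heart and by -0.09 and -0.06 in muscle. P4ha1 differed by 0.44 in heart and by -0.12 and -0.20 in muscle. Heart and muscle also differed in agent, cells reached and experiment, and no test was made between these effects.

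The 3 KO animals kept a similar order for several members. The same 3 animal numbers, read from the labels, gave the KO soleus and KO quadriceps arrays. KO replicate 2 was the highest and KO replicate 3 the lowest of the 3 for P4ha3, Plod1, Plod2 and Plod3 in both muscles, and for Lox and Loxl1 in soleus. Plod2 in quadriceps deviated from the KO mean by 0.60 in replicate 2 and by -0.44 in replicate 3. Lox in soleus deviated by 0.70 in replicate 2 and by -0.80 in replicate 3. P4ha1 and P4ha2 did not follow this order. The mean of the fibroblast markers deviated by 0.29 in replicate 2 and by -0.33 in replicate 3 in soleus, but only by 0.06 and 0.02 in quadriceps. The mean of the 6 tendon markers also had replicate 2 highest and replicate 3 lowest in both muscles. It was 9.47, 9.57 and 8.61 in KO soleus and 8.65, 9.27 and 8.62 in KO quadriceps, in replicate order. The mean of 4 slow skeletal muscle markers in KO quadriceps was 6.61, 8.95 and 7.34, again highest in replicate 2. The part of these cells and fibres in the deviations was not tested. With KO replicate 2 left out of both muscles, the KO contrasts again called 0 members, but the KO minus WT difference of Plod2 in quadriceps was -0.30 ± 0.10 (adjusted p = 0.294) in place of -0.003. Without quadriceps KO replicate 3 alone it was 0.20, so that the value near 0 rests on these opposite arrays.

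**Figure D4:**
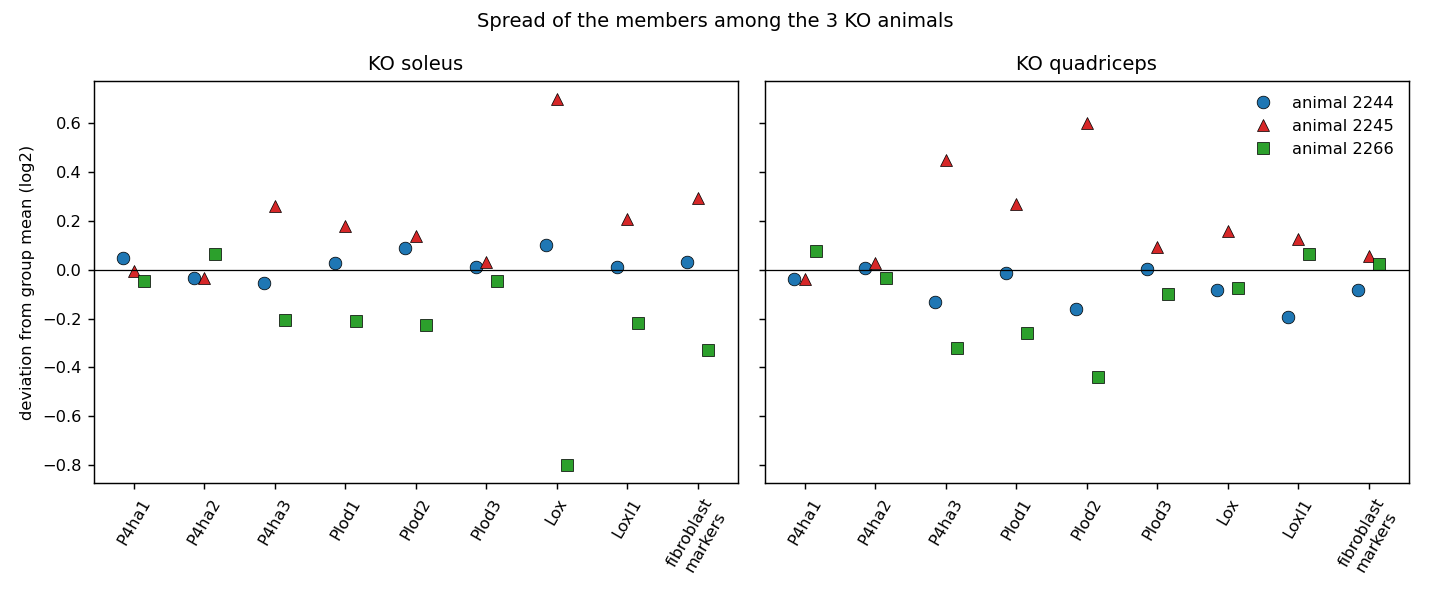
Deviation of each KO array from its group mean (y axis, log2) for the 8 genes and for the mean of 8 fibroblast markers, in KO soleus (left) and KO quadriceps (right). Points are the 3 animals, with replicate 1 as circles, replicate 2 as triangles and replicate 3 as squares. Replicate 2 is highest for Plod2 in both muscles, by 0.14 and 0.60.

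The type of muscle was compared within genotype, since soleus is a slow postural muscle and quadriceps is mostly fast. P4ha1 was lower in soleus in both genotypes, by -0.59 ± 0.06 in WT (0.665-fold; adjusted p = 2.64e-06) and by -0.51 ± 0.06 in KO (adjusted p = 1.13e-05). The 6 soleus arrays lay at 8.71 to 8.97 and the 6 quadriceps arrays at 9.23 to 9.52, without overlap. In WT, 2 of 7 members passed against 49.7% of all tested genes, with 1 higher and 1 lower in soleus against 23% and 26.7% of all tested genes. The higher one was Plod2, by 0.46 ± 0.17 with an adjusted p of 0.0402. It no longer passed in 10 of 15 alternatives, with adjusted p of 0.0529 to 0.119 in those, among them the omission of any 1 of the 6 WT arrays. In KO, 2 of 7 passed against 45.7%: P4ha1 and Plod3, which was lower by -0.18 ± 0.06 (adjusted p = 0.0167). Plod3 in WT differed by -0.12 with an adjusted p of 0.0818. The Plod3 call in KO was lost without quadriceps KO replicate 2 (adjusted p = 0.0915) and without soleus KO replicate 3 (0.0567), and with the fibroblast marker mean as a covariate (0.0669). Lox differed by -0.63 ± 0.25 in KO (adjusted p = 0.0586) and Plod2 by 0.41 ± 0.17 (adjusted p = 0.073). With the animal as a fixed block, which compares both muscles within each animal, both passed (adjusted p = 0.0419 for Lox and 0.0245 for Plod2). Single arrays moved these values: Lox was -0.97 without soleus KO replicate 2 (adjusted p = 0.00391) but -0.24 without soleus KO replicate 3 (adjusted p = 0.309), and -0.19 with the fibroblast marker mean as a covariate (adjusted p = 0.40). Plod2 was 0.70 without quadriceps KO replicate 2 (adjusted p = 0.000212) but 0.20 without quadriceps KO replicate 3 (adjusted p = 0.357). Loxl1 did not overlap between WT soleus, at 8.74 to 8.84, and WT quadriceps, at 8.39 to 8.71, and its difference was 0.23 (adjusted p = 0.0949). It was 0.13 without quadriceps WT replicate 2 (adjusted p = 0.364). With the fibroblast marker mean as a covariate Loxl1 passed both in WT (0.29, adjusted p = 0.00167) and in KO (0.41, adjusted p = 0.000514; 0.22 without the covariate, adjusted p = 0.11).

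Other genes of the pathway were read against the same 49.7% of all tested genes that passed between the WT muscles. Of 12 collagen modification genes, 3 were higher in soleus and 2 lower, with P3h2, a prolyl 3-hydroxylase of basement membrane collagen, 7.09-fold higher (adjusted p = 3.21e-09) and Mia3, which loads collagen for export, lower by -0.62 log2 units. Among 11 lysyl oxidases and helpers, 3 were higher and 2 lower, with Postn higher by 2.62 and Loxl4 lower by -0.37 log2 units. Of 16 collagens, 1 was higher (Col8a1, 1.25) and 1 lower (Col6a3, -0.56). Of 8 fibroblast markers, 2 were higher and 4 lower in WT soleus. The 6 endothelial markers averaged 9.27 to 9.55 in WT soleus and 8.62 to 8.78 in WT quadriceps, with 5 of 6 higher in soleus. The 7 smooth muscle and pericyte markers averaged 8.84 to 9.03 in WT soleus and 8.29 to 8.39 in WT quadriceps, and all 6 of them that were tested were higher in soleus. Of 6 tendon markers, Tnmd (1.04) and Scx (0.91) were higher in soleus. The part of these cells in the differences between muscles was not tested.

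Vehicle hearts were set against WT muscles to order the levels over tissues. Tissue and experiment cannot be told apart in these differences. Plod2 was 3.21-fold higher in vehicle heart than in WT soleus (log2 difference 1.68 ± 0.18, adjusted p = 2.47e-07) and 4.43-fold higher than in WT quadriceps (2.15, adjusted p = 6.14e-09). Plod1 was higher by 0.96 and 0.97, P4ha2 by 0.57 and 0.53 and P4ha1 by 0.83 and 0.24 against WT soleus and WT quadriceps in that order. Lox ran the other way, at -0.89 ± 0.24 against WT soleus (adjusted p = 0.00458) and -1.09 against WT quadriceps (adjusted p = 0.000726). Against WT soleus 5 of 7 passed, where 60.1% of all tested genes did, with 4 higher beside 30.3% of genes and 1 lower beside 29.8%. Against WT quadriceps 6 of 7 passed, where 66.9% did, with 5 higher beside 32.7% and 1 lower beside 34.2%, so that passing by itself was common. The P4ha1 difference from quadriceps (adjusted p = 0.019) was lost without vehicle replicate 1 (0.12, adjusted p = 0.153) or quadriceps WT replicate 1 (adjusted p = 0.0703), and Loxl1 (0.34, adjusted p = 0.0122) was lost without quadriceps WT replicate 2 (adjusted p = 0.0765). Plod3 did not pass against either muscle (-0.02 and -0.15), but without vehicle replicate 1 its difference from quadriceps was -0.24 with an adjusted p of 0.00657.

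More collagens passed as lower than as higher in vehicle heart, whereas Plod1, Plod2, P4ha1 and P4ha2 were higher there. Of 16 collagens, 2 were higher and 7 lower in vehicle heart than in WT soleus, and 3 were higher and 11 lower than in WT quadriceps. Of all tested genes, 30.3% were higher and 29.8% lower against WT soleus, and 32.7% higher and 34.2% lower against WT quadriceps. Col1a1, a chain of the main fibrillar collagen, was lower by -1.63 and -1.61 log2 units, and Col12a1 by -2.31 and -1.86. The means of the 8 fibroblast markers were 9.86 to 9.98 in vehicle heart, 9.93 to 10.04 in WT soleus and 9.84 to 10.22 in WT quadriceps. The endothelial markers averaged 10.22 to 10.29 in vehicle heart, above both WT muscles, and the tendon markers 6.46 to 6.78, against 8.96 to 9.24 in WT soleus and 8.38 to 8.88 in WT quadriceps. The part of these cells in the tissue differences was not tested.

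**Figure D5:**
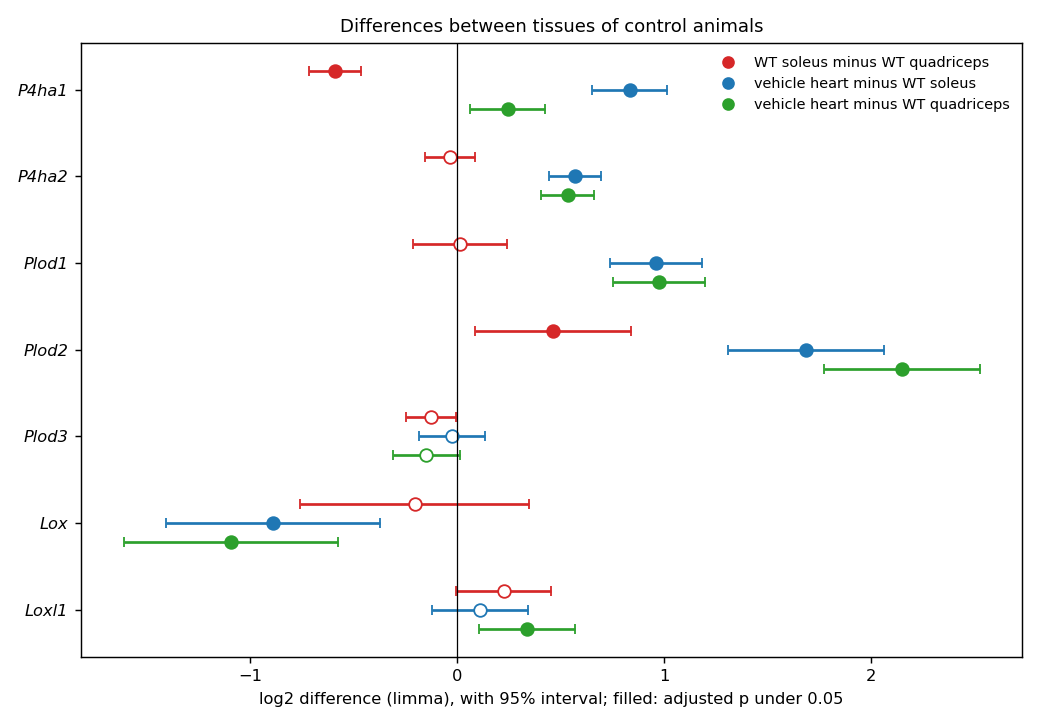
Log2 differences (x axis) with 95% intervals between tissues of control animals for the 7 tested genes: WT soleus minus WT quadriceps (red), vehicle heart minus WT soleus (blue) and vehicle heart minus WT quadriceps (green). Filled points passed an adjusted p of 0.05. Plod2 is higher in heart (1.68 and 2.15), Lox is lower in heart (-0.89 and -1.09), and Plod3 did not pass in any of these comparisons.

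Over the 6 groups the genes fell into distinct orders. For P4ha1 the means increased in the order KO soleus (8.76), WT soleus (8.88), KO quadriceps (9.27), WT quadriceps (9.47), vehicle heart (9.71) and FG-4497 heart (10.15), and only the soleus groups overlapped as neighbours. P4ha2 and Plod1 had 4 muscle groups that overlapped their neighbours, then vehicle heart (means 8.28 and 10.55) and FG-4497 heart (8.97 to 9.04 for P4ha2, mean 10.81 for Plod1) apart from them. By its means, Plod2 put the quadriceps groups lowest (6.90 in KO, 6.91 in WT) and the soleus groups next (7.31 in KO, 7.37 in WT). Vehicle heart (9.05) and FG-4497 heart (10.37) followed. The KO quadriceps arrays of Plod2 ran from 6.46 to 7.50 and overlapped both soleus groups. Lox was lowest in vehicle heart (7.04 ± 0.07, SD) and highest in KO quadriceps (8.55 ± 0.14), and FG-4497 heart (7.94 ± 0.16) fell among the overlapping soleus and WT quadriceps groups. Plod3 stayed between means of 8.36 and 8.62 with all neighbours overlapping, and neighbours of P4ha3 overlapped throughout as well. Loxl1 had means between 8.45 in KO quadriceps and 8.91 in vehicle heart, and among its neighbours only WT soleus and vehicle heart did not overlap.

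Similarity of pattern was described by Pearson's r over the 18 arrays, which fall into 3 tissues, and over deviations from the 6 group means, which leave the groups out. Within the set, Plod1 and Plod2 had r = 0.973 over arrays and 0.814 over deviations, while P4ha1 and P4ha2 had 0.872 and 0.145. The largest deviations of Plod1 (0.27 and -0.26) and Plod2 (0.60 and -0.44) were those of quadriceps KO replicates 2 and 3. These arrays therefore weigh heavily in r over deviations for both genes. Among 11567 other genes, those most like Plod1 over arrays were Lamb1 (0.991) and Col4a2 (0.988), both parts of basement membranes, and over deviations Igfbp7 (0.951) and Hspg2 (0.949). Plod2 was nearest to Cerk (0.991) and Fam117b (0.987) over arrays and to Piezo1 (0.931) and Pakap (0.896) over deviations. For P4ha2 these were Fam102a (0.986) and Ets2 (0.984), then Dot1l (0.797) and Cdan1 (0.796), and for P4ha1 Stat6 (0.976) and Plekha2 (0.975), then Itsn2 (0.928) and P2rx6 (0.861). Lox lay nearest to Ddr2 (0.833), a collagen receptor, and Podn (0.828), then Rgl1 (0.912) and Serpinf1 (0.911). Loxl1 was nearest to Cyth3 (0.879) and Tuba1a (0.877), then Nox4 (0.897) and Cd34 (0.877). Plod3 had Piezo1 (0.821) and Dctd (0.817), then Pml (0.896) and Stard13 (0.881). No such genes are given for P4ha3, which lay below the filter in 17 of 18 arrays.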

How the data were processed

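The deposited values were log2 expression values per probe set, which the authors made with RMA, per the submitters' processing notes; the RMA version and which arrays entered it together are not stated there. The platform annotation gave 1 gene for 21789 of 35556 probe sets, several for 1621 and none for 12146; symbols of 21698 were updated by gene identifier, and 19938 genes were each represented by the brightest probe set. No column was left out. Arrays have no read depth, so 3 arrays per group limit the precision.

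In R 4.3.3 with limma 3.58.1 and statmod 1.5.0, the 12 muscle arrays were fitted with a mean for each of 4 groups and a random block for the animal (consensus correlation 0.178), the 6 heart arrays by themselves, and all 18 for heart against muscle (correlation 0.210). Animal numbers were read from the labels, which do not call them so. Genes below the 40th percentile of mean level were left out, P4ha3 among them, and the fitting was tested on simulated data. Replicate numbers did not pair arrays: same-numbered KO and WT or treated and vehicle arrays correlated in their deviations at -0.308 to 0.164. Where labels do not name separate animals, p-values measure the spread between these arrays.

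All 8 members were named, with the 2 genes most like each by correlation (left out for P4ha3) and, per gene list, up to 3 called genes with the largest difference or else the largest one. Members and lists were chosen with earlier results of these data known. Alternatives varied the filter, the normalization, the block, the prior, array weights, the probe set rule, a fibroblast covariate and the arrays included.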

Additional observations from a re-analysis of the deposited data

How the results depend on the processing

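Recomputing each gene's difference in each comparison under each alternative gave 1071 values, of which 1037 kept their side of the threshold, 16 lost a call, 18 gained one and 0 reversed a called direction; among the first, 47 differences that did not pass changed sign. In heart, Plod2 and P4ha2 passed in 15 of 15 alternatives and Lox in 14 of 14 in which it was tested (differences 1.22 to 1.45, 0.70 to 0.74 and 0.84 to 0.99), and the count of members called was 5 with a trended and robust prior, which added P4ha1 (adjusted p = 0.0130) and Plod1 (adjusted p = 0.0483), and 3 to 4 with 1 array left out. With P4ha1 at 0.0416, the stricter filter also called it, while Lox was not tested under that filter. For WT soleus against WT quadriceps, the count of 2 became 1 without the animal block, without the filter, with repeated quantile normalization and with the trended and robust prior, and was 1 to 2 with 1 array left out. It was also 1 with the stricter filter, under which Plod2 was not tested. For KO soleus against KO quadriceps, the count of 2 became 4 with animal as a fixed block and 4 with estimated array weights, and was 2 to 3 with 1 array left out. KO against WT called 0 members in soleus, quadriceps, their average and their difference under each alternative run. With the replicate block, which only a shared number supports, 3 members passed in heart and 0 in soleus and quadriceps, and 218 genes passed in heart against 267 without it. Over alternatives the genes called numbered 147 to 374 in heart, 6 to 67 in soleus (22 as reported), 26 to 225 in quadriceps (95), 61 to 257 for their average (109) and 0 to 3 for their difference (1). The cause of these shifts was not tested. Setting the filter over all probe sets and leaving out KO replicate 2 in both muscles were chosen after seeing the data.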
